A study of Mus musculus with 18 samples.

Results

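A set of 8 genes that mark fibroblasts of the synovium were followed in cartilage of the injured mouse knee, as a sign of synovial tissue in the dissected material. Clic5, Cd55 and Tspan15 stood for the fibroblasts of the synovial lining, and Pi16, Dpp4, Dpt, Ly6a and Cd34 for adventitial fibroblasts. The genes are a list of names, and transcripts of all of them were found among the 49184 genes of the abundance tables. Each member had enough reads to be tested.

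The samples were RNA libraries from femoral condyle cartilage caps of male C57Bl/6J mice, 12 weeks old, with no genetic modification named. The right anterior cruciate ligament (ACL) was ruptured by a single 12 N load under anaesthesia with buprenorphine given, and the uninjured left knee served as contralateral control. Injured and contralateral knees were taken at day 1 and at day 7 post injury (3 libraries in each of these 4 groups), and 6 libraries came from naïve mice, which had no load and are labelled with day 7. Each library was a pool of knees, and the labels do not tie a pool to its mice. The series text gives 4 mice per library while the study's methods count 6 mice at day 1, 12 at day 7 and 6 naïve. The study's supplement gives pools of 4 mice because of cartilage loss at day 7, and separate pools for left and right knees. With 6 naïve mice for 6 such pools, the naïve libraries share mice. The tests treated them as independent, and p-values measure the spread between pools. The libraries held between 16074762 and 41794005 estimated read pairs, with a median of 25465706.5. Day 7 contralateral replicate 1 stood apart: its 10 most abundant genes took 42.5% of its counts, against 16.6% to 29.8% in the others.

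The synovium is the soft lining of the joint cavity. Its surface is a thin layer of lining fibroblasts, which secrete the lubricant lubricin (Prg4) and hyaluronan into the joint fluid, and beneath it lie blood vessels, fat and matrix-producing fibroblasts. Adventitial fibroblasts sit around vessels in most tissues, and Pi16- and Dpp4-positive cells are regarded there as a progenitor-like pool. Cartilage is avascular and holds only chondrocytes, but the synovium attaches at its margin, close to where a cap is cut. None of the markers is restricted to the synovium. Cd34 is also carried by endothelial cells and Ly6a by endothelial and blood-forming cells.

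At day 7 post injury 3 of the 5 adventitial markers and none of the 3 lining markers were called; no test compared the sets. Dpt rose 5.11-fold, Ly6a 2.198-fold and Cd34 1.68-fold over naïve cartilage, and in counts per 1000000 (CPM) each was higher in every one of the 3 injured libraries than in any of the other 15; in transcripts per 1000000 (TPM) this held for Dpt, and Ly6a and Cd34 overlapped with other groups. Pi16 and Dpp4, the other adventitial markers, were not called, and neither were Clic5, Cd55 and Tspan15. At day 1 no member was called. A gene was called where the edgeR quasi-likelihood test gave a false discovery rate (FDR) of at most 0.05 and the change was at least 1.5-fold. Of the 8 members 3 were thus called against naïve, all of them higher. Of the 21129 genes tested 16.6% were called, 10.4% higher and 6.11% lower (1268 genes higher and 4556 lower, in place of 2207 and 1291, when libraries were scaled to their totals alone). The members had a median log2 fold change of 0.24 and all genes one of -0.04.

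The sequence just upstream of the genes is shown for the pair of adventitial markers that moved most closely together, Dpt and Cd34, and for the pair of lining markers that did so, Clic5 and Tspan15. The bases are from RefSeq (GRCm38.p6), written 5′ to 3′ on the strand of the gene. They hold no base of the GENCODE gene model, and capitals mark a motif match. Dpt lies at chr1:164796413-164796643 on the plus strand, Cd34 at chr1:194938571-194938818 (plus), Clic5 at chr17:44188322-44188571 (plus) and Tspan15 at chr10:62231252-62231468 (minus).
Dpt: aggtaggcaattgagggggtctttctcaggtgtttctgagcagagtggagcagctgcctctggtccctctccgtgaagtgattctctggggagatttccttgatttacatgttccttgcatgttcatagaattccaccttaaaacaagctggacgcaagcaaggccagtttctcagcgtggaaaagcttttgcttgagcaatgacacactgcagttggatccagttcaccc
Cd34: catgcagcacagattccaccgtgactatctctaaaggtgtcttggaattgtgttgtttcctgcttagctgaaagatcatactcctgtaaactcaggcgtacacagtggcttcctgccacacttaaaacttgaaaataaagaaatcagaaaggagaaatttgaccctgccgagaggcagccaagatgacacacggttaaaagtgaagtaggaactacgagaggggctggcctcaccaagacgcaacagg
Clic5: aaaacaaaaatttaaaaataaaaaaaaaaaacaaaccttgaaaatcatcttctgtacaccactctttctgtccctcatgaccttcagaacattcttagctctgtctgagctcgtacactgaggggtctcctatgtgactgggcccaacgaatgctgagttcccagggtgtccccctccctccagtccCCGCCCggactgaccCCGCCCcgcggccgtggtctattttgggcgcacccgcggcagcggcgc
Tspan15: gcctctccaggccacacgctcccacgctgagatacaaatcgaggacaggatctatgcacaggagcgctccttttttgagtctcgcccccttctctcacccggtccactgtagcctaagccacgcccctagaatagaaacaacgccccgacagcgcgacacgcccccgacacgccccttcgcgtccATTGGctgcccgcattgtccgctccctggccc
The 250 bases before each start were searched on both strands for 5 motifs. These were the GC box (written GGGCGG), the CCAAT box (its name is its sequence), the TATA box (written TATAAA), the AP-1 site (written TGANTCA) and the TEAD site (written GGAATG), and no matches overlapped in the sequences printed. Dpt and Cd34 held none of the 5. Clic5 held 2 GC boxes, read here as CCGCCC on the other strand; 32.7% of the 32851 promoters in the table held at least 1. Tspan15 held a CCAAT box, read as ATTGG, as did Pi16 and 33.8% of all promoters. Its match to AP-1, found in 6.75% of promoters, lay in bases of the gene model that are not printed. A match is a description of the letters, and nothing was measured at these promoters. Of the 8 members 7 were in the table, Ly6a being the exception.

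Levels in each library are given as CPM on library sizes scaled by the trimmed mean of M values, a scale for comparing 1 gene between libraries. Clic5, a chloride intracellular channel protein of the cell cortex, had the widest spread of the lining markers. In the naïve libraries it stood at 75.1, 88.1, 61.0, 100.6, 24.9 and 59.7 CPM. The day 1 contralateral libraries had 68.0, 74.1 and 22.9 CPM, and the day 1 injured libraries 90.2, 24.1 and 124 CPM. One library in each of these 3 groups lay far below the rest, so that most of the variation in Clic5 was within groups. At day 7 the contralateral libraries had 49.0, 66.8 and 71.7 CPM and the injured ones 50.5, 64.4 and 54.9 CPM. The injured libraries at day 7 lay inside the naïve range. Their difference from naïve was -0.25 on the log2 scale (SE 0.46, edgeR FDR 0.71), with a 95% interval from -1.24 to 0.74, or 0.42-fold to 1.67-fold.

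Tspan15 is a tetraspanin that escorts the membrane protease Adam10 and steers which substrates it cuts. It was low in the same libraries as Clic5 at day 1 and in naïve mice. On the injured side at day 7, replicate 1 was the lowest in both genes. On the contralateral side at day 7, replicate 1 was the lowest in Clic5 and the highest in Tspan15. Tspan15 had 16.8, 20.3, 13.8, 23.3, 8.91 and 15.6 CPM in the naïve libraries. The day 1 libraries had 15.03, 17.5 and 9.25 CPM on the contralateral side and 20.002, 9.15 and 23.7 CPM on the injured side. The lowest values belonged to the same 3 libraries in which Clic5 was lowest: naïve replicate 5, day 1 contralateral replicate 3 and day 1 injured replicate 2. At day 7 Tspan15 stood at 22.2, 16.8 and 18.6 CPM in the contralateral libraries and at 16.1, 23.3 and 20.5 CPM in the injured ones. These overlapped with each other and with naïve. The difference between day 7 injured and naïve was 0.30 (SE 0.30, edgeR FDR 0.48, 95% interval -0.34 to 0.93).

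Cd55, the decay-accelerating factor that takes apart complement convertases on the cell surface, was steadier. Naïve libraries had 47.4, 44.2, 33.7, 44.7, 29.4 and 41.0 CPM. At day 1 the contralateral libraries had 45.9, 41.5 and 29.6 CPM and the injured ones 40.9, 32.3 and 52.7 CPM. The 3 libraries named above were low here too, though less so than in Clic5. At day 7 the contralateral libraries had 20.3, 39.1 and 41.2 CPM and the injured ones 39.96, 45.7 and 49.3 CPM. The lowest of all, at 20.3 CPM, was day 7 contralateral replicate 1 with its dominant genes. Day 7 injured libraries overlapped with both control groups, and the difference was 0.19 against naïve (SE 0.17, edgeR FDR 0.44, 95% interval -0.18 to 0.55) and 0.42 against the day 7 contralateral side (SE 0.24, edgeR FDR 0.26; 0.19 without that library).

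Dpt encodes dermatopontin, a small matrix protein that binds decorin and collagen fibrils. In the naïve libraries it had 53.1, 58.3, 35.03, 80.2, 33.8 and 41.2 CPM, a mean of 50.3 ± 17.6 (SD, n = 6). The day 7 injured libraries had 227, 262 and 270 CPM, a mean of 253 ± 22.9 (SD, n = 3). The lowest injured library was above the highest naïve one by more than the whole naïve range. Day 7 contralateral libraries had 54.8, 53.6 and 43.3 CPM. At day 1 Dpt had 36.2, 44.6 and 24.3 CPM in the contralateral and 70.3, 28.4 and 59.0 CPM in the injured libraries, all within or close to the naïve range. The log2 fold change at day 7 was 2.35 against naïve (SE 0.28, 95% interval 1.76 to 2.94, edgeR FDR 1.3e-05), 2.33 against the contralateral side (SE 0.33, edgeR FDR 8.8e-05) and 2.29 against day 1 injured (SE 0.35, edgeR FDR 0.00028).

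Ly6a (Sca-1), a lipid-anchored surface protein used to sort progenitor cells, had a broad naïve range of 34.2, 43.5, 44.8, 72.7, 86.2 and 71.0 CPM. The day 7 injured libraries stood at 113, 141 and 129 CPM. They cleared the highest naïve library, and the day 7 contralateral libraries with 58.1, 49.6 and 53.1 CPM lay in the middle of the naïve range. Day 1 contralateral libraries had 31.1, 65.9 and 49.1 CPM and day 1 injured ones 67.0, 56.3 and 44.0 CPM, which overlapped. The log2 fold change at day 7 was 1.14 against naïve (SE 0.26, 95% interval 0.57 to 1.70, edgeR FDR 0.0047), 1.26 against contralateral (edgeR FDR 0.0068) and 1.21 against day 1 injured (edgeR FDR 0.013). Ly6a shares long stretches of sequence with other Ly6 genes, so estimated counts can be divided between them, and its values are uncertain to that extent. Of those relatives Ly6c1 was called higher (log2 fold change 0.72), and Ly6c2 (-0.26), Ly6e (0.23) and Ly6i (0.24) were not.

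Cd34, a sialomucin of the cell surface, changed least of the 3 but with little spread. Naïve libraries had 68.6, 70.1, 61.7, 78.2, 52.5 and 53.2 CPM, and the day 7 injured ones 99.6, 108 and 111 CPM. The groups were apart, and day 7 contralateral libraries (61.6, 62.9 and 58.2 CPM) stayed among the naïve ones. At day 1 the contralateral libraries had 54.0, 58.4 and 47.1 CPM and the injured ones 74.5, 47.3 and 78.0 CPM. The log2 fold change at day 7 was 0.75 against naïve (SE 0.15, 95% interval 0.44 to 1.06, edgeR FDR 0.0013), 0.81 against contralateral (edgeR FDR 0.0026) and 0.70 against day 1 injured (edgeR FDR 0.0095). When libraries were scaled to their totals alone, which moved the median of all genes by -0.31, the change against naïve was 0.44 (edgeR FDR 0.021), short of 1.5-fold.

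Pi16, a secreted peptidase inhibitor, varied little between groups. It stood at 43.4, 43.0, 43.8, 50.9, 41.4 and 43.4 CPM in naïve libraries and at 53.3, 48.8 and 39.9 CPM in day 7 injured ones. Day 7 contralateral libraries had 64.4, 53.1 and 44.1 CPM, the highest group mean of the gene. Day 1 libraries had 41.8, 44.5 and 41.3 CPM (contralateral) and 51.4, 36.6 and 50.1 CPM (injured). All neighbouring groups overlapped in CPM. The difference between day 7 injured and naïve was 0.11 (SE 0.11, edgeR FDR 0.46), and the 95% interval from -0.12 to 0.35 left room for a 1.27-fold rise at most.

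Dpp4 (CD26), a serine protease of the cell surface that clips dipeptides from peptide hormones and chemokines, had the narrowest range of the members, with its highest library 1.62 times its lowest. Naïve libraries had 22.5, 25.1, 18.7, 18.1, 18.5 and 26.1 CPM, and day 7 injured ones 18.8, 22.4 and 18.8 CPM. The remaining libraries had 20.3, 29.1 and 18.6 CPM (day 1 contralateral), 17.97, 21.3 and 21.6 CPM (day 1 injured) and 18.1, 25.4 and 22.7 CPM (day 7 contralateral). No group stood apart on this scale. The difference between day 7 injured and naïve was -0.08 (SE 0.15, edgeR FDR 0.71, 95% interval -0.41 to 0.25). In TPM, which weigh transcripts by length and lack the scaling of CPM, the day 7 injured libraries had 2.76, 3.43 and 2.88. These sums over all transcripts lay below all naïve libraries (3.75 to 6.08), and the ratio of the means was 0.595 against 0.932 in CPM. The protein-coding transcript Dpp4-201 alone had 1.19, 1.70 and 1.61 TPM in day 7 injured libraries, which overlapped with the naïve 1.57 to 2.38 TPM. Day 7 contralateral libraries had 1.52, 5.34 and 4.15 TPM over all transcripts. No test was run on TPM.

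**Figure D1:**
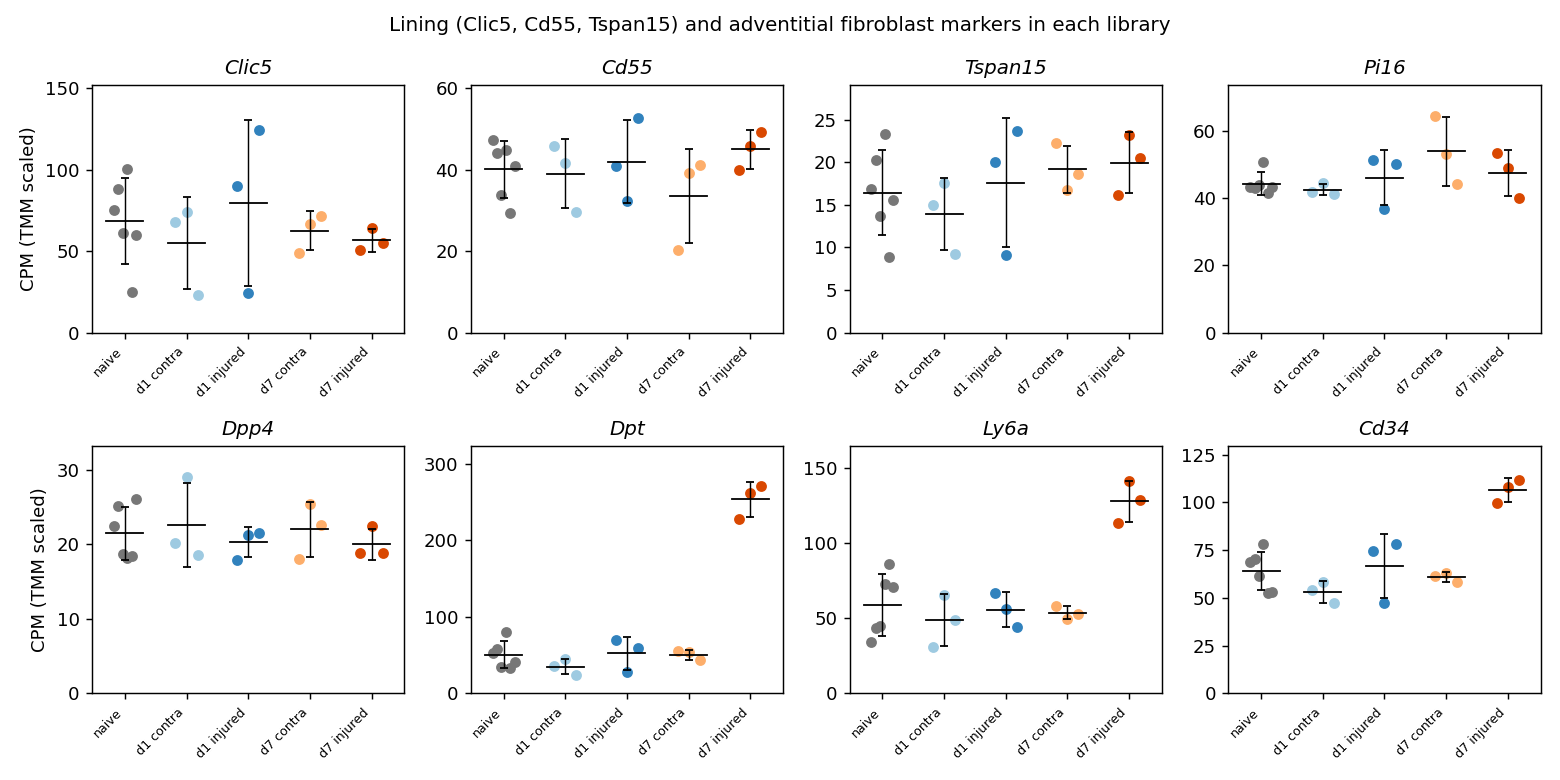
Level of each of the 8 markers in CPM (vertical axis) in the 5 groups (horizontal axis); dots are libraries and bars the mean ± SD. Dpt, Ly6a and Cd34 separate the 3 day 7 injured libraries from the rest, with Dpt at 227 to 270 CPM, while the other 5 markers overlap between all groups.

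In bulk tissue, more cells of a type and more RNA per cell cannot be told apart, so these differences say how much of a transcript the dissected cap held and not in which cells. Per length, in TPM, Ly6a was the most abundant member with a mean of 50.5 over the 18 libraries, then Dpt with 25.8, Cd34 with 15.8, Cd55 with 11.1, Pi16 with 10.9, Clic5 with 6.47, Dpp4 with 5.23 and Tspan15 with 3.04 TPM. In naïve cartilage Dpt had 16.3 ± 5.14 TPM and Cd34 13.96 ± 2.10 TPM (SD, n = 6), close to each other. In day 7 injured cartilage Dpt had 68.0 ± 14.6 TPM, near Ly6a at 77.7 ± 16.5, while Cd34 had 19.1 ± 3.54 TPM (SD, n = 3). Even the rarest marker rested on reads enough to be measured, the smallest value being 224 estimated counts for Tspan15 in 1 library.

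Against the contralateral knee of day 7, which asks whether the change is confined to the injured side, the same 3 members were called higher and none lower, where 12.6% of 21262 genes were called, 9.33% higher and 3.23% lower (1435 genes higher and 1305 lower, in place of 1984 and 686, with library totals alone). The count called lower ran from 279 to 1058 with 1 library left out. Without day 7 contralateral replicate 1 the 3 members were still called, with log2 fold changes of 2.41 for Dpt, 1.34 for Ly6a and 0.84 for Cd34 (edgeR FDR 0.00044, 0.015 and 0.0058). Clic5 differed by -0.15, Tspan15 by 0.06, Pi16 by -0.18 and Dpp4 by -0.14 on the log2 scale, none of them called (edgeR FDR 0.43 to 0.93). Against day 1 injured cartilage the 3 were called again, where 15.4% of 21129 genes were called, 9.04% higher and 6.38% lower (793 genes higher and 6042 lower, in place of 1910 and 1347, with library totals alone), and the others had edgeR FDRs of 0.55 to 0.995. With library totals alone 1 of the 3 was called, since Ly6a had an edgeR FDR of 0.053 and Cd34 one of 0.22. Cd34 fell short of 1.5-fold (0.49) without day 1 injured replicate 2, and Ly6a had an edgeR FDR of 0.057 without day 1 injured replicate 3. These 3 comparisons share the day 7 injured libraries and do not stand for separate observations. In CPM, all day 7 injured libraries lay above all libraries of the compared group for Dpt, Ly6a and Cd34 in each comparison, as they did for 17.4% of all genes against naïve, 18.6% against day 7 contralateral and 22.8% against day 1 injured. In CPM no member lay below the compared group in all libraries, as 10.8%, 14.3% and 17.5% of genes did. In TPM Ly6a (58.7, 85.3 and 89.1) overlapped with naïve (25.5 to 68.4) and day 1 injured libraries (57.0 to 62.6). Cd34 in TPM (15.4, 19.5 and 22.4) overlapped with naïve (11.6 to 16.5), day 7 contralateral (5.20 to 17.4) and day 1 injured libraries (14.2 to 29.5). Dpp4 in TPM, summed over all its transcripts, lay below all naïve and all day 1 injured libraries, while its protein-coding transcript alone overlapped with naïve. Pi16 in TPM (9.59, 9.33 and 8.21) lay below all day 1 injured libraries (10.1 to 19.1) and overlapped with naïve (8.13 to 11.4).

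At day 1 post injury the injured and contralateral knees could not be told apart by any marker. No member was called, and neither was any other gene (0% of 21129), by the edgeR test, although 1383 genes had an unadjusted p under 0.05. The edgeR FDRs of the members ranged from 0.76 to 0.94. Dpt differed by 0.58 (95% interval -0.13 to 1.30), Clic5 by 0.53 (-0.60 to 1.65) and Cd34 by 0.32 (-0.05 to 0.69), intervals that include a rise. Clic5 differed by 0.97 without day 1 injured replicate 2 and by 0.16 without day 1 contralateral replicate 3, the low libraries named above, and was called in neither fit (edgeR FDR 0.42 and 0.99). Over all fits that left out 1 library, Clic5 ran from 0.055 to 0.97, Dpt from 0.33 to 0.89 and Cd34 from 0.19 to 0.52. No member was called in any of those fits. The libraries of the 2 sides overlapped for every member, whereas all injured libraries lay above all contralateral ones for 5.09% of genes and below them for 6.07%. Day 1 injured against naïve gave 0 members (0% of genes, lowest FDR of a gene 0.165, 959 genes with an unadjusted p under 0.05). The contralateral knees against naïve gave 0 members as well, at day 7 (0% of genes, lowest FDR 0.25, 3220 genes with an unadjusted p under 0.05) and at day 1 (0% of genes, lowest FDR 0.9998, 554 genes with an unadjusted p under 0.05). The Wald test of DESeq2 called no member in these 4 comparisons either, and called 15 genes for day 1 injured, 8 for day 7 contralateral and 2 for day 1 contralateral against naïve.

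Whether injury changed a marker more at day 7 than at day 1 was tested as the difference between the 2 injured-minus-contralateral contrasts. One member was called, where 4.01% of 21262 genes were called at an FDR of at most 0.05, 3.72% higher and 0.287% lower (252 genes higher and 94 lower, in place of 791 and 61, with library totals alone). With 1 library left out the count called lower ran from 9 to 93, and the DESeq2 Wald test gave 196. The injury effect on Dpt was larger at day 7 by 1.74 on the log2 scale (SE 0.46, 95% interval 0.78 to 2.70, edgeR FDR 0.040). This call was close to the threshold: it was lost in 10 of the 18 fits that left out 1 library, with the value between 1.44 and 1.997 and the FDR between 0.023 and 0.11. Ly6a (1.06, edgeR FDR 0.20) and Cd34 (0.48, edgeR FDR 0.33) were not called, so a difference between the days was not shown for them.

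**Figure D2:**
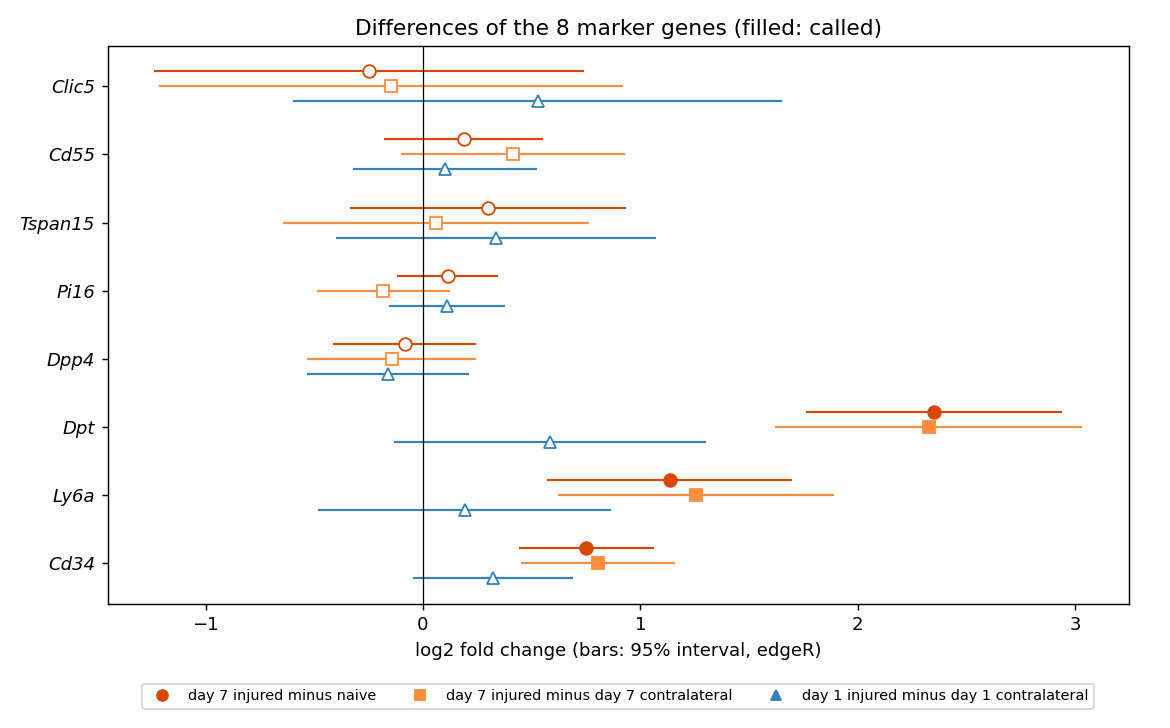
Log2 fold change (horizontal axis) of each marker with its 95% interval for day 7 injured against naïve, day 7 injured against day 7 contralateral and day 1 injured against day 1 contralateral; filled points are called. Dpt lies at 2.35 and 2.33 in the day 7 comparisons and at 0.58 at day 1, and the intervals of Clic5 and Tspan15 are the widest of the uncalled markers at day 7.

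Within each set some markers varied together over the libraries. Pearson's r of log2 CPM over the 18 libraries was 0.86 between Clic5 and Tspan15 and 0.66 between Clic5 and Cd55. The first value fell to 0.43 without naïve replicate 5, day 1 contralateral replicate 3 and day 1 injured replicate 2, and the second to 0.54. With the summed level of 10 other lining genes, 60.8% of which was Prg4, r was -0.53 for Clic5, -0.40 for Tspan15 and 0.08 for Cd55 (-0.61, -0.70 and -0.11 over the 15 libraries that were not day 7 injured). With the sum of 8 skeletal muscle genes it was 0.65, 0.31 and 0.36 (0.77, 0.59 and 0.62). Among the adventitial markers r was 0.96 between Dpt and Cd34, and it was 0.92 over the 15 libraries that were not day 7 injured. For Dpt with Ly6a it was 0.75 over the 18 and 0.10 over the 15, so that likeness came with the day 7 injured libraries. Over the same 15 libraries Clic5, a lining marker, had r = 0.82 with Dpt and 0.86 with Cd34. Over the 18 these were 0.30 and 0.46. With the 3 low libraries left out of the 18 and the day 7 injured ones kept, they were -0.27 and -0.05. These coefficients are descriptions, since all genes of a library share its dissection and depth.

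**Figure D3:**
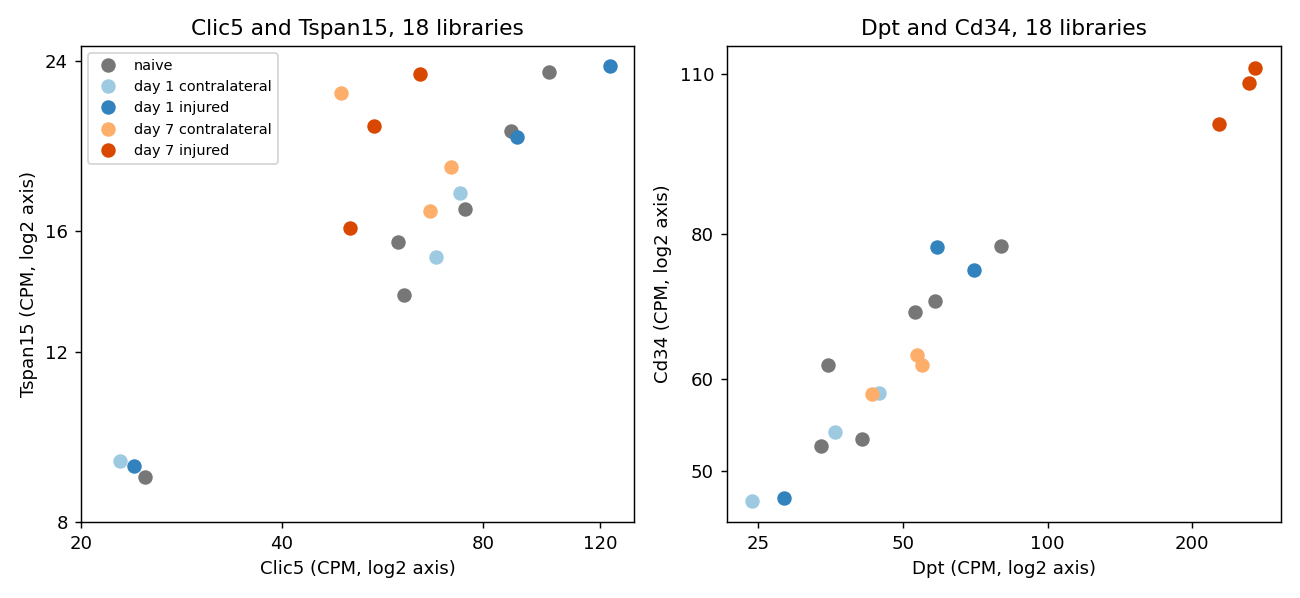
CPM of Tspan15 against Clic5, and of Cd34 against Dpt, on logarithmic axes; each dot is a library coloured by group. In the first panel 3 libraries from different groups lie low in both genes, and in the second the 3 day 7 injured libraries lie beyond the line of the others.

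The 3 libraries low in Clic5 and Tspan15 were low in Scara5 and in adipocyte genes, and high in Prg4. Scara5, a ferritin receptor of adventitial fibroblasts, had 8.36, 7.85 and 8.93 CPM in them and between 22.6 and 42.5 CPM in the others. The sum of 8 adipocyte markers was 259, 271 and 206 CPM there, while the other 12 libraries that were not day 7 injured had sums of 433 to 875 CPM. Prg4, which superficial chondrocytes make as well as lining fibroblasts, was at 1409, 1649 and 1775 CPM in the same 3 libraries, against 240.5 to 892 CPM in those 12. Dpt, Cd34 and the sums of 8 skeletal muscle genes (2929, 4287 and 3235 CPM), 15 other adventitial genes (1115, 1067 and 1019 CPM) and 15 chondrocyte genes (4797, 4404 and 4119 CPM) were also the lowest of their groups there. So were Pi16 and the sums of 8 osteoblast and osteocyte genes (500, 457 and 608 CPM) and 8 osteoclast genes (1060, 1121 and 1238 CPM). The tendon sum (308, 246 and 244 CPM) was not, 85.4% of it being Thbs4, and naïve replicate 5 had the highest naïve level of Ly6a. Over the 15 libraries the adipocyte sum had r = 0.95 with Tspan15, 0.90 with Dpt, 0.87 with Clic5, 0.86 with Cd34, 0.79 with Pi16, 0.30 with Cd55, 0.06 with Dpp4 and -0.05 with Ly6a. Over all 18 the values were 0.57, -0.25, 0.72, -0.10, 0.57, 0.05, 0.18 and -0.49 in the same order. The day 7 injured libraries had adipocyte sums of 236, 280 and 190 CPM, as low as the 3 libraries, and yet 50.5 to 64.4 CPM of Clic5 and 30.8 to 32.4 CPM of Scara5. The part that adipose, bone or other tissue had in these levels was not tested.

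The genes whose levels most resembled each member, among 15988 genes with a mean of at least 1 CPM, are given by r over the 18 libraries. For Clic5 they were Lrrc30 (0.94), Hspa12a (0.93) and Ntrk2 (0.93), and for Tspan15 Car8 (0.95), Scara5 (0.95) and Lyz1 (0.94). Cd55 was most like Omd (0.94), Gm14421 (0.94) and Srr (0.93). Omd encodes osteomodulin, a small leucine-rich proteoglycan. Dpt was most like C1s1 (0.99), Klhl13 (0.98) and Zfp185 (0.98), C1s1 being a serine protease of the classical complement pathway. Cd34 was most like BC067074 (0.97), Olfml1 (0.96) and Dpt itself (0.96). Ly6a was most like Gorasp1 (0.92), Vwa5a (0.92) and Adam17 (0.91). Pi16 (Mccc2, Rflnb and Mlycd, each 0.84) and Dpp4 (Gm12057 0.85, Arl5c 0.81 and Cpa3 0.80) had the least similar neighbours over the 18. Cpa3 is a mast cell carboxypeptidase. Over the 15 libraries that were not day 7 injured, the same neighbours of Ly6a had 0.79, 0.78 and 0.73. These were lower than the values of Pi16 (0.89, 0.92 and 0.85) and Dpp4 (0.86, 0.80 and 0.84) over those 15.

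Further genes of the same cell types were counted in day 7 injured against naïve cartilage, as log2 fold changes. Of 10 other lining genes 5 rose and none fell, with a median of 0.84 against -0.04 for all genes. They were Has1 (1.92) and Ugdh (0.91), which make hyaluronan and its precursor, the growth factor Hbegf (1.31), the transcription factor Creb5 (1.10) and the collagen gene Col22a1 (0.77). Prg4 itself had a fold change of 0.65 and was not called (edgeR FDR 0.27), with 730, 1133 and 1771 CPM in the injured libraries, which overlapped with the naïve range (373 to 1409 CPM). With library totals alone the list had 3 higher and 1 lower. The summed level of the list ran from 894 to 1918 CPM in naïve and from 1394 to 2588 CPM in day 7 injured libraries, which overlapped.

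Of 15 other adventitial or universal fibroblast genes 8 rose and none fell, with a median of 1.07. Mfap5 (2.72) and Fbn1 (2.18) build elastic microfibrils, Col15a1 (2.08) is a basement membrane collagen and Cd248 (1.59) a surface protein of stromal cells. The other 7 were not called, Scara5 (0.33) and Gsn (-0.73, edgeR FDR 0.076) among them. With library totals alone 7 of the list were higher and 1 lower. Gsn was the most abundant gene of the list with 45.6% of its sum. The sum stood at 2240, 2336 and 2586 CPM in the day 7 injured libraries and at 1019 to 1971 CPM in the others. The summed level of the 5 adventitial markers followed here was likewise 512 to 583 CPM against 180 to 300.1 CPM, and that of the 3 lining markers 107 to 133 CPM against 62 to 200.4 CPM.

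Of 15 general fibroblast genes 11 rose and none fell, with a median of 1.26, including the collagens Col3a1 (3.65), Col14a1 (2.99) and Col1a1 (2.05), the proteoglycan Lum (2.86), and the surface markers Thy1 (1.91) and Pdgfra (1.32). Their sum, of which Col1a1 made 51.9%, was 99629 to 113541 CPM in day 7 injured libraries and 14145 to 84926 CPM in the others, the highest of these being day 7 contralateral replicate 1. All 5 tendon and ligament genes rose (median 2.32), among them Tnmd (3.68), the tendon transcription factor Scx (2.94), Kera (2.32) and Thbs4 (1.52). Their sum was 746, 738 and 898 CPM in the injured libraries and 117 to 397 CPM in the others. Dpt and these fibroblast and tendon genes were therefore high in the same 3 libraries.

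Vessel genes bear on Cd34, which endothelial cells carry. Of 12 endothelial genes 6 rose and none fell, with a median of 0.58, among them Emcn (1.04), Tie1 (0.75), Cdh5 (0.74) and Pecam1 (0.71). The endothelial sum was 795, 784 and 877 CPM in day 7 injured libraries and 569 to 719 CPM in the others. Vwf was its most abundant gene with 35.2%, and no gene of the list was at 0 in all libraries. Cd34 had r = 0.77 with this sum over the 18 libraries and 0.41 over the 15 that were not day 7 injured. With the sum of other adventitial genes r was 0.91 over the 18 and 0.79 over the 15. It was 0.89 and 0.69 with the pericyte and smooth muscle sum, and 0.75 and 0.28 with the general fibroblast sum. With library totals alone 1 endothelial gene was higher and 1 lower. Of 8 pericyte and smooth muscle genes 4 rose and none fell: Acta2 (1.38), Mcam (1.19), Rgs5 (1.08) and Cspg4 (0.87). Whether Cd34 came from endothelial cells or fibroblasts was not tested.

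Of 12 macrophage genes none was called higher and 1 fell (Timd4, -1.12), while 10 had values above 0, with a median of 0.32 against -0.04 for all genes, and Csf1r had 0.32. Their sum was 877, 946 and 865 CPM in day 7 injured libraries, above the naïve range of 590.0 to 804 CPM and overlapping with the 936, 808 and 845 CPM of day 7 contralateral libraries. None of 8 leukocyte genes was called, and Ptprc, the pan-leukocyte marker, had -0.33 (edgeR FDR 0.0072), below the fold limit. Of 8 neutrophil and marrow genes S100a8 (-0.67) and S100a9 (-0.63) fell, and of 8 erythroid genes 5 fell, among them Alas2 (-0.73), Epb42 (-0.67), Slc4a1 (-0.66) and Hba-a1 (-0.62). Of 8 adipocyte genes 5 fell, with a median of -1.40, including Retn (-2.41), Lep (-1.85), Cidec (-1.75) and Cfd (-1.58). Skeletal muscle genes had a median of -0.76 with none of 8 called. These lists show that marrow, fat and muscle transcripts were present in the caps of every group.

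Bone and cartilage genes gave mixed counts. Of 8 osteoblast and osteocyte genes Ibsp (0.69) rose and Sost (-0.96) and Mepe (-0.61) fell, and of 8 osteoclast genes Ctsk (1.25) rose. The osteoclast median was 0.51 here and 0.61 in day 7 contralateral against naïve. Between injured and contralateral knees of day 7 the osteoclast median was -0.15, with none of the 8 called. Of 15 chondrocyte genes 4 rose, namely Acan (1.57), Comp (1.40), the transcription factor Sox9 (1.36) and Col11a1 (1.26), and Cytl1 (-2.31) and Chad (-0.73) fell. Col2a1, the main collagen of cartilage and 53.6% of the list's sum, had 0.25 and was not called. The chondrocyte median was 0.25 and turned to -0.06 with library totals alone. The chondrocyte sum of 7991 to 9051 CPM in day 7 injured libraries overlapped with the 4119 to 15104 CPM of the others, and no gene of the list was at 0 in all libraries.

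**Figure D4:**
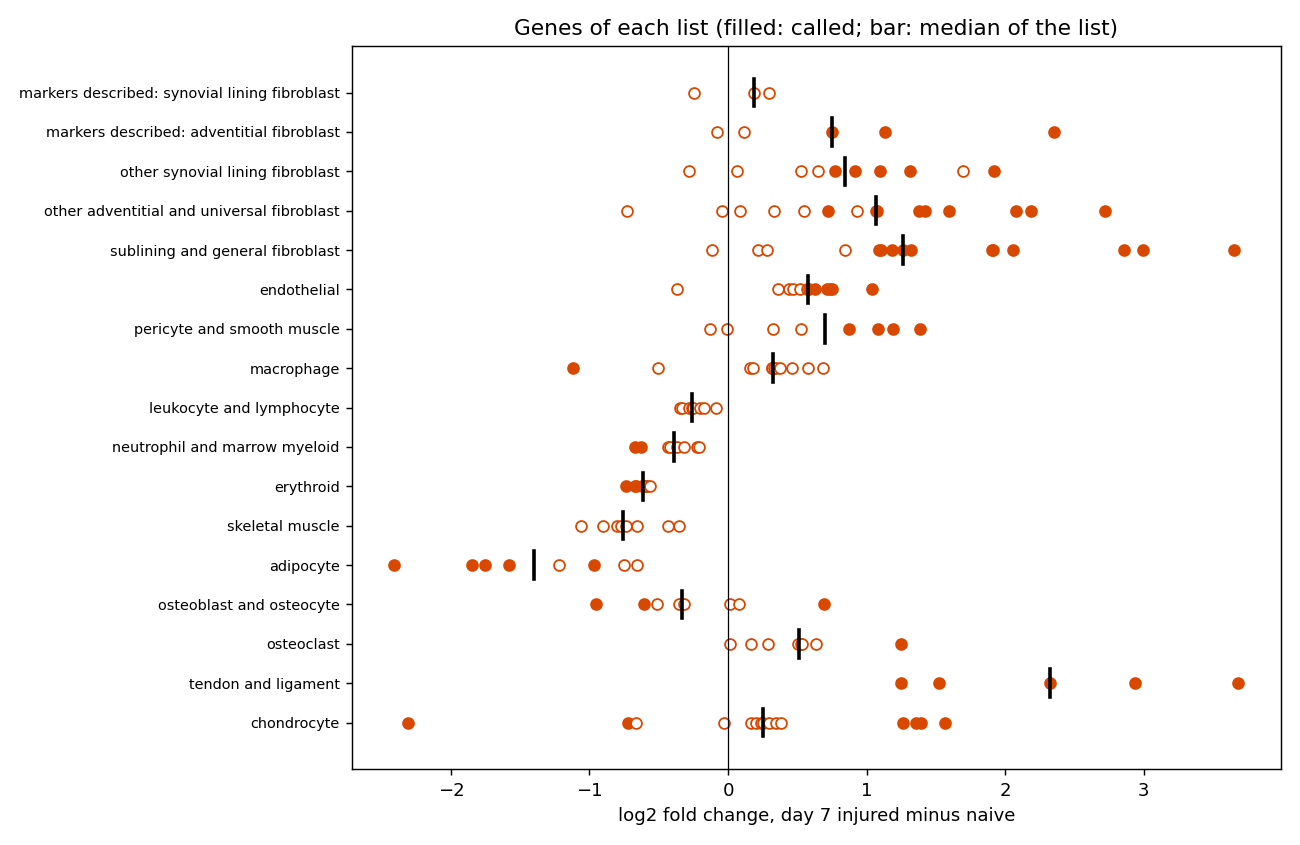
Log2 fold change of day 7 injured against naïve (horizontal axis) for the genes of 17 lists (vertical axis), each dot a gene and each bar the list's median. By median, tendon and ligament (2.32) and general fibroblast genes (1.26) lie furthest right and adipocyte genes (-1.40) furthest left. The lining markers Clic5, Cd55 and Tspan15 lie near 0.

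**Figure D5:**
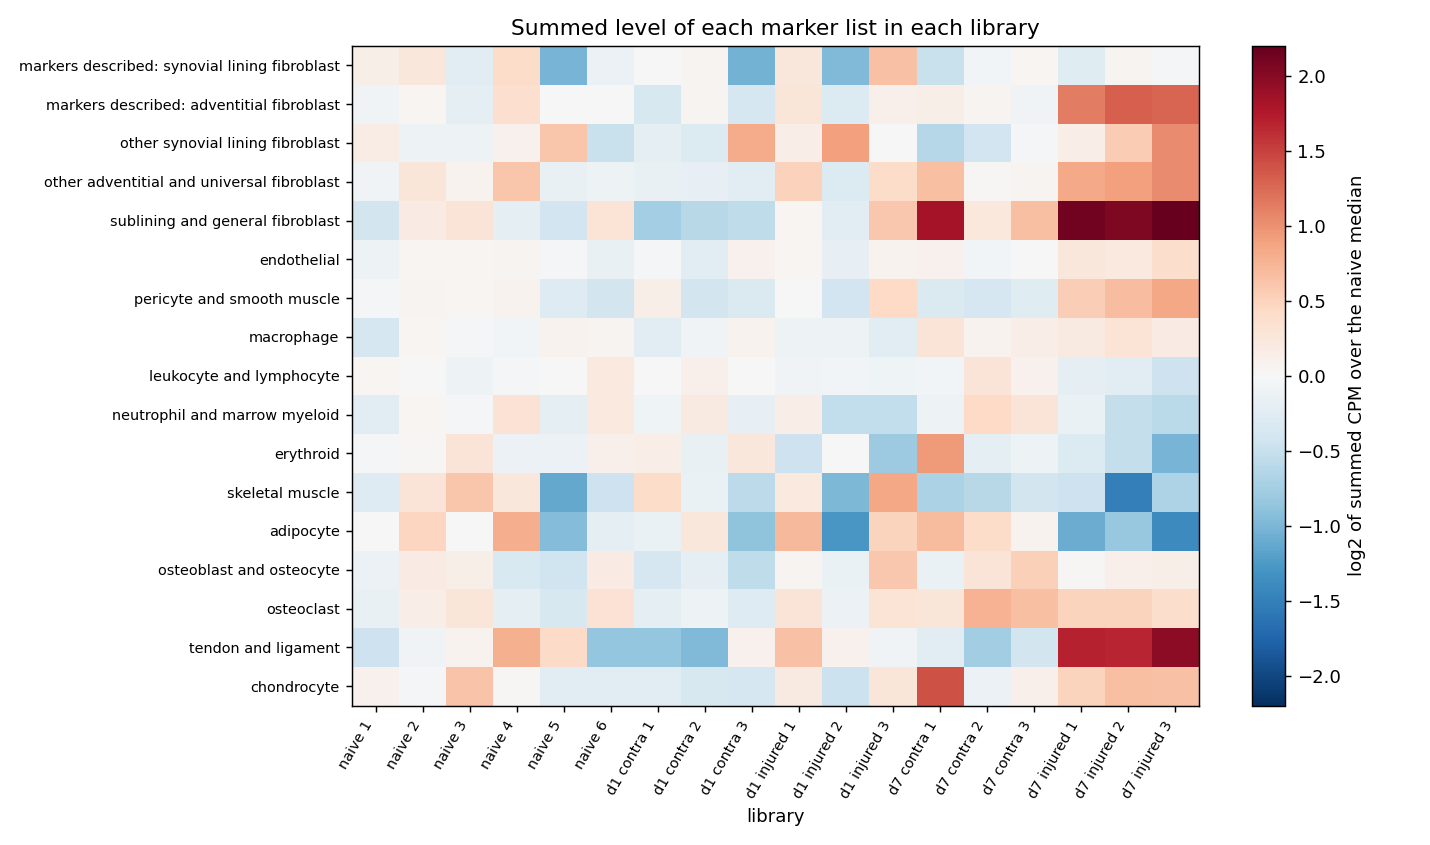
Summed CPM of each list in each of the 18 libraries, coloured as log2 of its ratio to the naïve median. The day 7 injured columns are raised in the adventitial, general fibroblast and tendon rows, not in the row of Clic5, Cd55 and Tspan15, and are lowered in the adipocyte row, and naïve replicate 5, day 1 contralateral replicate 3 and day 1 injured replicate 2 are low in the adipocyte row.

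Relatives of the members showed whether a whole family moved. Of 3 tested Clic genes beside Clic5, Clic4 rose (0.82), Clic3 fell (-0.77) and Clic1 (0.16) was not called. Of 7 genes of the dipeptidyl peptidase family beside Dpp4, Fap (1.09), a marker of activated fibroblasts, and Dpp7 (0.61) rose and Dpp10 (-0.87) fell. Among the tetraspanins of the Tspan15 group 1 rose, Tspan17 (0.66), and their protease partner Adam10 had -0.04. Of 7 tested complement regulators beside Cd55, 3 fell, namely Cr2 (-1.24), C4bp (-1.09) and Cd46 (-0.74). With library totals alone the medians of the Clic, dipeptidyl peptidase and tetraspanin lists were -0.16, -0.24 and -0.33, in place of 0.16, 0.07 and -0.01. Cd55b, a near copy of Cd55, was at 0.11 CPM or lower in all libraries, so few reads of Cd55 could have been assigned to it.

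The transcripts behind the gene sums differed between members. Dpt has 1 annotated transcript, and Clic5-201 held 97.5% of the Clic5 TPM, averaged over the libraries. Tspan15-201 held 79.97%, Cd55-201 62.1% and Cd34-201 51.5%, with Cd34-202, which codes for a shorter protein, at 44.1%. For Ly6a the leading Ly6a-201 (37.3%) and Ly6a-204 (37.2%) carry a coding sequence of the same 402 bases. Pi16 and Dpp4 were different: the leading Pi16 transcript, Pi16-203 (37.1%), is annotated as a retained intron, and Dpp4-201, the 1 protein-coding transcript of Dpp4, held 41.9%. These are shares of TPM, in which a read of a short transcript weighs more. In estimated counts, on which CPM and tests rested, Dpp4-201 held 406 of 456 in naïve replicate 1 and 374 of 415 in day 7 injured replicate 1. When only protein-coding transcripts were summed, a choice made after these shares were seen, the same 3 members were called against naïve (Dpt 2.23, Ly6a 1.02 and Cd34 0.67), and Pi16 (0.23) and Dpp4 (-0.17) were not.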

How the data were processed

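Total RNA of cartilage pools was depleted of ribosomal RNA, sequenced in read pairs from stranded libraries and quantified by the authors with Kallisto against mouse transcripts (GRCm38). The submitters' processing notes list kallisto, DESeq2 and GRCh38, which is a human build, while the transcript identifiers are mouse. The deposited tables give, per transcript, estimated counts and TPM with the authors' transcript lengths, one table per library. Of 137436 transcripts 135107 (98.3%) matched GENCODE M21; the rest held 0.667% to 3.90% of the counts and were left out. Columns of samples left unused numbered 0.

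Estimated counts were summed per gene, rounded and tested with edgeR 4.0.16 (quasi-likelihood, TMM scaling, filterByExpr, Benjamini-Hochberg adjustment; R 4.3.3). Where a comparison did not use day 7 contralateral knees, those 3 libraries, 1 of which stood apart in composition, were kept out of the fit (15 libraries, 21129 genes); other fits used all 18 (21262 genes). Calls needed an FDR of at most 0.05 and a 1.5-fold change, the difference between injury effects the FDR alone. CPM used the TMM-scaled sizes of the 18 libraries. Replicates were numbered in accession order, which pairs nothing. Pearson's r used log2(CPM + 0.5).

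The members and gene lists were chosen with earlier results of these data known. Named genes are the members, the 3 genes most like each, up to 4 called genes per list with the largest change against naïve, every gene of a list with 4 or fewer tested, and 10 markers always named (Prg4, Thy1, Pdgfra, Pecam1, Cdh5, Ptprc, Csf1r, Acan, Col2a1, Adam10). Col22a1, Col11a1, Chad, the Ly6 and Cd55 relatives and list genes named as not called were added after their values were seen. The tests were checked on simulated data. Alternatives were DESeq2 1.42.0, limma-voom (limma 3.58.1), other scalings, filters and thresholds, and each library left out. The study's methods say that 1 library of the ACL experiment was removed for a low mapping rate and do not name it; it may be among these 18.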

Additional observations from a re-analysis of the deposited data

Results flagged for a closer look

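Pi16 in naïve replicate 4 was set apart from the other naïve libraries: it had 50.9 CPM while the other 5 lay between 41.4 and 43.8 CPM, a gap beyond Dixon's 95% critical value for 6 samples. Chance alone flags about 1 in 20 groups, and 8 members were examined. The same library had the highest naïve values of Clic5, Tspan15, Dpt and Cd34.

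The injury effect on Dpt differed between the days by the test of the difference itself. It was larger at day 7 than at day 1 by 1.74 on the log2 scale (SE 0.46, edgeR quasi-likelihood FDR 0.040). The call was lost in 10 of 18 fits that left out 1 library, with library totals alone (edgeR FDR 0.093) and with offsets for transcript length (edgeR FDR 0.052).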

How the results depend on the processing

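The calls of Dpt, Ly6a and Cd34 against naïve and against day 7 contralateral held in all fits run, except Cd34 against naïve with library totals alone (0.44, edgeR FDR 0.021); in TPM, which were not tested, its ratio of 1.37 was also short of 1.5. With library totals the median of all genes moved by -0.31 against naïve and by -0.45 against day 1 injured, genes called higher went from 2207 to 1268 and from 1910 to 793, lower from 1291 to 4556 and from 1347 to 6042, and members called against day 1 injured from 3 to 1 (Ly6a 0.77, Cd34 0.25). Without the fold limit 3960 and 3427 genes were called higher in these comparisons. Against day 1 injured, Ly6a was lost at an FDR limit of 0.01 (edgeR FDR 0.013), and leaving out 1 library left 2 to 3 members called: Cd34 had 0.49 without day 1 injured replicate 2, and Ly6a an edgeR FDR of 0.057 without day 1 injured replicate 3. Members called for the difference between injury effects went from 1 to 0 at an FDR of 0.01, with library totals, with offsets for transcript length and in leave-one-out fits (0 to 1), and genes called higher from 791 to 341, 252 and 518, to 521 with the compared groups only, and to between 396 and 979 in leave-one-out fits. The Wald test of DESeq2 called 1 gene higher for day 1 contralateral and 8 for day 7 contralateral against naïve.

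On the log2 scale signs turned only in values that were not called. With library totals they were Cd55 -0.12, Pi16 -0.20 and Tspan15 -0.0063 against naïve, Cd55 -0.33, Pi16 -0.39 (edgeR FDR 0.018) and Tspan15 -0.24 against day 1 injured, Tspan15 -0.060 against day 7 contralateral (-0.16 with length offsets), and Dpp4 -0.22 in the difference of effects. There Dpp4 also had -0.015 with the CPM filter (and Pi16 -0.00077 against day 1 injured), -0.0053 by the DESeq2 Wald test, -0.0036 with DESeq2 size factors, -0.036 by limma-voom and -0.062 from protein-coding transcripts. In leave-one-out fits the day 1 injury effect ran from -0.093 to 0.26 for Cd55, -0.28 to 0.063 for Dpp4 and -0.046 to 0.47 for Ly6a. Day 7 against day 1 injured ran from -0.051 to 0.31 for Cd55, -0.13 to 0.46 for Tspan15, -0.097 to 0.17 for Pi16 and -0.098 to 0.045 for Dpp4. Tspan15 against day 7 contralateral ran from -0.057 to 0.19, and Dpp4 in the difference of effects from -0.21 to 0.13. Ratios of the day 7 injured to the naïve mean in TPM (in CPM) were 4.18 (5.04) for Dpt, 1.77 (2.18) for Ly6a, 1.37 (1.66) for Cd34, 0.936 (1.07) for Pi16, 0.595 (0.932) for Dpp4, 0.687 (0.830) for Clic5, 0.932 (1.123) for Cd55 and 0.947 (1.21) for Tspan15, so Pi16, Cd55 and Tspan15 turned below 1; the cause was not tested. Genes called lower ran, with 1 library left out, from 797 to 1425 against naïve, from 849 to 1363 against day 1 injured, from 279 (without day 7 injured replicate 3) to 1058 (without day 7 contralateral replicate 3) against day 7 contralateral and from 9 (without day 7 injured replicate 3) to 93 (without day 1 injured replicate 2, or without day 7 injured replicate 1) for the difference of effects, where the DESeq2 Wald test gave 196. No paired analysis was possible because the labels carry no replicate numbers and tie no knee to its pool of mice. The study's methods describe an adjustment for shared mouse pools, by duplicateCorrelation in limma. The tests of injured against contralateral knees and of the difference of effects were run here without it.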
